A study of Mus musculus with 20 samples.

Results

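Macrophages carrying PIC on a lipoparticle were compared with macrophages given the same kind of particle with 3M added to it. The comparison rests on 10 of the 20 libraries of the series, 5 from cells treated with LP 3M PIC and 5 from cells treated with LP PIC, and every library that the labels put in these groups was used. Each group holds a culture from each of 5 mice, numbered here 1 to 5, so the same animals stand on both sides. Bone marrow cells of these mice had been grown into macrophages in DMEM with Glutamax, fetal bovine serum and medium conditioned by L929 fibroblasts, which supplies the growth factor CSF-1, before treatment for 48 h. Both groups therefore share the culture medium, the particle and PIC, and differ by 3M. The lipoparticle of the title is taken to be LP, and the labels do not say what PIC and 3M stand for. The amount of PIC on either particle and the strain, sex and age of the mice were not given in the sources used here. LP 3M PIC is called the dual particle below.

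Macrophages sense foreign material with pattern recognition receptors. Signals from these receptors run through an arm that ends in the transcription factor NF-kB and the MAP kinases, whose targets are inflammatory cytokines and chemokines, and through an arm that ends in interferon beta, whose receptor signals to the interferon-stimulated genes. In macrophages these programs are usually accompanied by feedback inhibitors, by changes in metabolism and by a slowing of growth. The question posed by the comparison is how cells given a particle with both 3M and PIC differed from cells given a particle with PIC alone.

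RNA was measured as reads per gene by poly(A)-enriched sequencing, and levels are given as CPM (reads of a gene relative to the size of its library, adjusted by TMM). Levels of single genes are given for the mice in the order 1 to 5, and changes as the log2 difference, LP 3M PIC minus LP PIC, with its standard error (SE). A gene was called when its adjusted p was under 0.05 in edgeR's quasi-likelihood test with Benjamini-Hochberg adjustment over 12132 tested genes. That test used a mean for each group and did not take the mouse as a block. All adjusted p below come from it unless another is named. Since these are bulk samples, fewer cells that express a gene and less RNA of it per cell cannot be told apart.

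The libraries held 12.5 to 23.6 M gene counts, 20.0 ± 4.53 M in LP 3M PIC and 21.9 ± 2.58 M in LP PIC (mean and SD, n = 5 mice). A principal component analysis of the 1000 genes that varied most set the groups apart on its first component, with 68.9% of the variance. LP PIC libraries lay at 30.0 to 43.9 on it and 4 dual libraries at -26.9 to -51.3, while the dual library of mouse 5 lay at -7.68. The second component, with 12.55% of the variance, parted the animals in both groups. Mice 1 and 2 lay at -21.4 to -15.5 on it and mice 3, 4 and 5 at 1.96 to 24.1. Over the genes called with a log2 change of at least 1, the median ratio of a mouse's own difference to the fitted change was 0.983, 0.987, 0.807, 0.869 and 0.586 in mice 1 to 5 and was thus smallest in mouse 5. Of all called genes, 94.0% had the sign of the fit in mouse 5 and 96.8% to 99.6% in the others. Markers of macrophages summed to 13270 to 19930 CPM in LP PIC and 12570 to 17030 CPM in LP 3M PIC, in overlapping ranges. Lyz2 alone had means of 9311 CPM in LP PIC and 6654 CPM in LP 3M PIC. Single macrophage markers moved both ways, with 3 of 10 called higher and 5 lower. Of 13 neutrophil markers, Retnlg was at 0 in all 10 libraries, and Elane, Ltf, Cxcr2 and S100a9 had means of at most 0.294 CPM in either group. The sum of the neutrophil list nevertheless ran from 369 to 5433 CPM in LP 3M PIC against 109 to 204 CPM in LP PIC, carried mainly by Lcn2, Mmp9, Csf3r and S100a8. All 6 of its members that could be tested were higher, and without Lcn2, Mmp9 and Csf3r the sum ran from 11.8 to 25.1 CPM in LP PIC and from 27.2 to 673 CPM in LP 3M PIC. Of 8 dendritic cell markers, Xcr1, Siglech and Cd209a were at 0 in all 10 libraries and the sum, mostly Ccl22 and Ccr7, ran from 6.50 to 31.5 CPM in LP PIC and from 30.5 to 152 CPM in LP 3M PIC. Fibroblast markers summed to 24.7 to 69.5 CPM in LP PIC and 33.1 to 144 CPM in LP 3M PIC, with 2 of 7 higher, and endothelial markers to 45.0 to 108 and 36.1 to 160 CPM, with 1 of 3 tested higher. T or NK cell, B cell, mast cell and erythroid lists summed to at most 0.584 CPM in any library. Whether other cells contribute to the genes below was not tested.

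Adding 3M moved a large part of the transcriptome in both directions. Of the 12132 genes, 5397 (44.5%) were called, 2805 higher (23.1%) and 2592 lower (21.4%) in LP 3M PIC. A log2 change of at least 1 was reached by 652 of the higher genes (5.37% of those tested) and by 638 of the lower (5.26%). Large changes were mostly rises, with 137 genes higher by at least 3 on the log2 scale and 20 lower by that much. The direction was the same in 5 of 5 mice for 4667 of the called genes, and 2947 genes (24.3% of those tested) had groups that did not overlap, 1561 higher and 1386 lower. The median change over all tested genes was 0.00. TMM scaling largely fixes that value beforehand, so a shift shared by most genes would not show in it. The numbers of called members in the gene lists that follow are to be read against the shares of 23.1% and 21.4%.

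**Figure D1:**
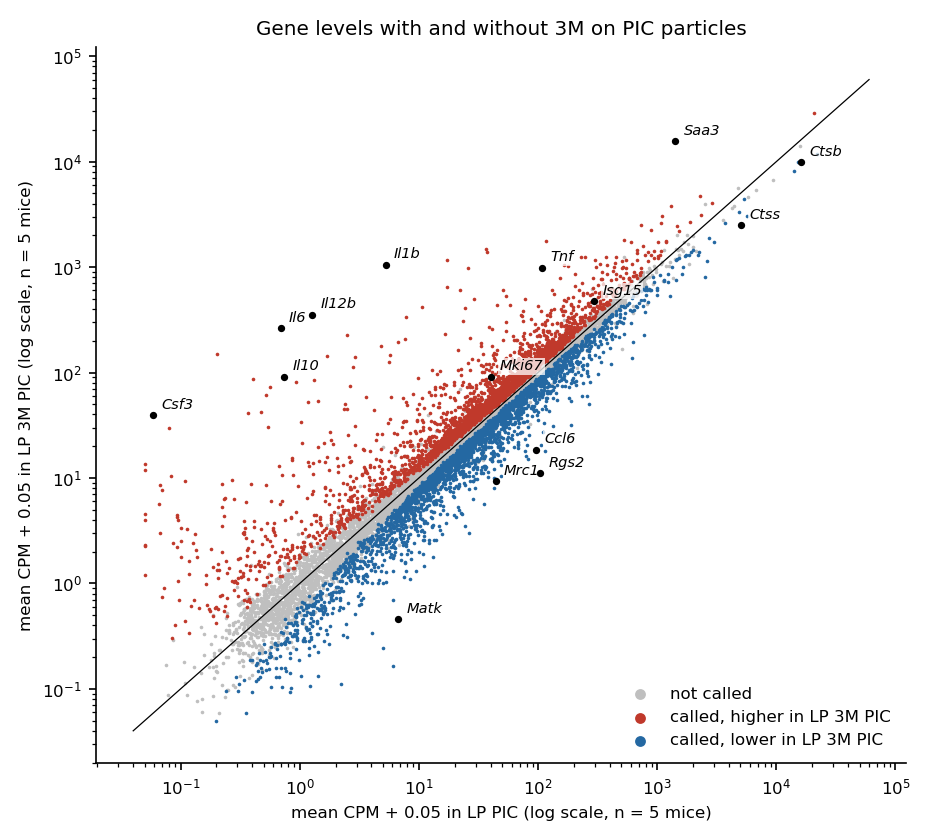
Mean level of each tested gene in the LP PIC group (horizontal axis) and the LP 3M PIC group (vertical axis), in CPM plus 0.05 on log axes, with called genes in red (higher, 2805) and blue (lower, 2592) and other genes in grey. The genes farthest above the diagonal include Il12b, Il6, Csf3 and Il1b, Isg15 lies near it among the grey points, and Matk and Rgs2 lie far below it.

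The genes with the largest rises went from next to nothing to clear expression. Csf3, which encodes the granulocyte growth factor G-CSF (chr11:98701263-98703629, GRCm38), gave 1 read in all 5 LP PIC libraries, in mouse 3. In LP 3M PIC it stood at 55.5, 102, 11.4, 22.9 and 6.53 CPM, and the ratio of the groups was 4735 (95% interval 849 to 187000, counting error only). Nhs, a regulator of the actin cytoskeleton (chrX:161833296-162159730), gave no read in LP PIC and 15.6, 12.3, 14.2, 19.0 and 6.96 CPM in LP 3M PIC, at least 491-fold higher. These bounds set the LP PIC group at a floor of 3 counts over its 5 libraries. Lum, encoding the matrix proteoglycan lumican (chr10:97565128-97572703), was at 0 in LP PIC and between 0.811 and 27.7 CPM in LP 3M PIC, at least 462-fold higher. Draxin, a secreted guidance protein, and Prickle1, a planar cell polarity protein, had 2 reads each in LP PIC, and their ratios were 519 (143 to 4291) and 316 (87.0 to 2614). Sprr2d, a cornified envelope protein, was found in LP PIC of mouse 1 alone, at 0.168 CPM, and at 1.83 to 23.4 CPM in LP 3M PIC. Shisa3, an antagonist of Wnt signals, rose from 0.354 to 86.2 CPM in the mean (log2 7.86 ± 0.77, adjusted p = 6.89e-07), with 11.9 CPM in mouse 5 and 71.7 to 140 CPM in the others. Edn1, encoding the vasoconstrictor endothelin-1, stood at 0.251, 0.699, 0.691, 0.887 and 0.0570 CPM in LP PIC and at 114, 119, 35.4, 83.5 and 15 CPM in LP 3M PIC (7.09 ± 0.74, adjusted p = 1.348e-06). The groups did not overlap for any of these 8 genes.

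The largest falls were smaller in size and again without overlap for most genes. Matk, a kinase that restrains Src family kinases (chr10:81252935-81263365), stood at 6.99, 7.52, 5.61, 5.50 and 7.70 CPM in LP PIC and at 0.146, 0.315, 0.165, 0.162 and 1.24 CPM in LP 3M PIC (log2 -3.91 ± 0.47, adjusted p = 5.08e-06). Rgs2, which switches off Gq-coupled receptor signals (chr1:143999338-144004161), stood at 99.3, 102, 136, 72.6 and 112 CPM against 6.28, 7.20, 11.5, 7.18 and 23 CPM (adjusted p = 6.14e-07), and it fell in every mouse. Fam198b fell from 26.1 to 2.96 CPM (-3.12 ± 0.33) and Zfp395 from 8.43 to 1.04 CPM (-2.98 ± 0.27). Rapgef3, the cyclic AMP-activated exchange factor of Rap, fell from 9.37 to 1.27 CPM, and the growth factor gene Pdgfc from 13 to 1.73 CPM. Epas1, encoding the hypoxia factor HIF-2 alpha, fell from 24.2 to 3.47 CPM (-2.76 ± 0.42). Pcp4l1 (-2.69 ± 0.34), the sialyltransferase gene St6gal1 (-2.67 ± 0.39), the activating receptor gene Cd300lb (-2.66 ± 0.35) and the Ras exchange factor gene Rasgef1a (-2.60 ± 0.32) completed the group. Cspg4, encoding the proteoglycan NG2, differed most between mice, with 0.822 to 13.9 CPM in LP PIC and 0.146 to 1.83 CPM in LP 3M PIC, so its groups overlapped. Its fall (-3.14 ± 0.98, adjusted p = 0.0141) was not called without mouse 3 (adjusted p = 0.0891, the highest over the alternatives).

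Promoters of an NF-kB target and of 2 interferon-responsive genes are shown here because the members of these arms moved differently in what follows. They are RefSeq sequences on GRCm38.p6, from 250 bases before to 50 bases after the start, and were chosen after the values were seen. Capitals mark matches to the NF-kB consensus, searched on both strands and overlapping itself where it is palindromic, and to the core of the interferon-stimulated response element (ISRE), read here as 2 copies of GAAA with 2 bases between them. Il6 (chr5:30012864-30013163, plus strand) holds 1 match to the NF-kB consensus, Cxcl10 (chr5:92348840-92349139, minus strand) holds 1 ISRE followed by 4 NF-kB matches at 2 places, and Isg15 (chr4:156200769-156201068, minus strand) holds 3 overlapping ISRE matches. The promoters of Il12b, Il12a, Il1b, Il1a, Tnf and Ptgs2, genes that were also higher in LP 3M PIC, held no NF-kB match in this window.
Il6: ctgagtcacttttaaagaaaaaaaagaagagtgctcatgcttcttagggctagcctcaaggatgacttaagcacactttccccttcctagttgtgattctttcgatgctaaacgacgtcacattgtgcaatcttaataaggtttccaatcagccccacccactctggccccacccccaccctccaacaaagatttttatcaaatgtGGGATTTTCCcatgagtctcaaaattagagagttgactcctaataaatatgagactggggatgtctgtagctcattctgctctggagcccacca
Cxcl10: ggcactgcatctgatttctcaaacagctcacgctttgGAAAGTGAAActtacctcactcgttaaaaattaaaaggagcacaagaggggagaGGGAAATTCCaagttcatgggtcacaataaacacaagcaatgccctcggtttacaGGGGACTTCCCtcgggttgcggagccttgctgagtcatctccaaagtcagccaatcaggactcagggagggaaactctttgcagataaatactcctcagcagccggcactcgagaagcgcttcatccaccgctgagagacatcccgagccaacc
Isg15: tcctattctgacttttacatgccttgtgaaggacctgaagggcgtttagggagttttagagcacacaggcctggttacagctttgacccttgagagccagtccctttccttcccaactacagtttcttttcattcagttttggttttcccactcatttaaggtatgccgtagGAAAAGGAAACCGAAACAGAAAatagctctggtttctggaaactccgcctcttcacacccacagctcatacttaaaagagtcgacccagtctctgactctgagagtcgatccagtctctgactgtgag
Of the tested genes, 9706 (80.0%) had such a promoter in the RefSeq table, and 12.3% of them held an NF-kB match and 3.97% an ISRE match. Among the genes higher by at least 1 on the log2 scale, 502 had a promoter, and the shares were 15.7% and 4.98%. For the genes higher by at least 3, 105 had a promoter, and the shares were 13.3% and 4.76%. Among those lower by at least 1, 471 had a promoter, and the shares were 14% and 4.25%. Genes that were not called gave 12% and 4.25%. The shares are descriptions, and a match is not a binding site.

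Inflammatory cytokines rose together. Of 27 listed genes 23 were tested, and 16 were higher and 2 lower, with a median log2 change of 1.77 against 0.00 over all tested genes and mouse medians between 1.49 and 2.29. Il6, whose promoter is printed above (gene at chr5:30013114-30019981), encodes a cytokine of fever and the acute phase. It stood at 0.795, 0.740, 0.647, 0.799 and 0.228 CPM in LP PIC and at 363, 369, 231, 274 and 72.1 CPM in LP 3M PIC (8.62 ± 0.86, adjusted p = 8.41e-07). Il12b, encoding the p40 chain shared by IL-12 and IL-23 (chr11:44400063-44414033), stood at 0.963, 0.904, 1.08, 2.66 and 0.513 CPM against 547, 241, 357, 524 and 97.9 CPM (8.15 ± 0.64, adjusted p = 6.86e-08). Mouse 5 was the lowest on both sides for both genes, and no dual library came near an LP PIC library. Il12a, encoding the p35 chain that completes IL-12, gave no read in LP PIC and 4.33, 4.37, 3.62, 5.51 and 2.05 CPM in LP 3M PIC, at least 146-fold higher. Il23a, encoding the chain that completes IL-23, was too low to test, at 0.123 and 0.242 CPM in the means of LP PIC and LP 3M PIC.

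The interleukin-1 genes and Il10 showed the same separation with a wide spread between mice. Il1b (chr2:129364570-129371139), a pyrogen that needs cleavage by an inflammasome, stood at 8.50, 7.69, 4.49, 3.68 and 1.65 CPM in LP PIC and at 1247, 2099, 590, 1218 and 119 CPM in LP 3M PIC (7.65 ± 0.98, adjusted p = 1.1e-05). Il1a, its relative that is active without cleavage, went from 17.3 to 1168 CPM in the mean (6.07 ± 0.77). Il10 (chr1:131019845-131024974), which restrains macrophage activation, stood at 0.586, 1.27, 0.173, 1.02 and 0.399 CPM against 158, 178, 28.2, 77.8 and 13.9 CPM (7.01 ± 0.86, adjusted p = 7.54e-06). In each of these genes the dual value of mouse 5 was the lowest and still lay above every LP PIC value. Tnf (chr17:35199381-35202007), encoding tumor necrosis factor, began from a measurable level. It stood at 117, 97.7, 89.8, 136 and 102 CPM in LP PIC and at 1154, 735, 1025, 1186 and 848 CPM in LP 3M PIC (3.19 ± 0.20, adjusted p = 3.14e-09), and mouse 5 was within the range of the others.

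**Figure D2:**
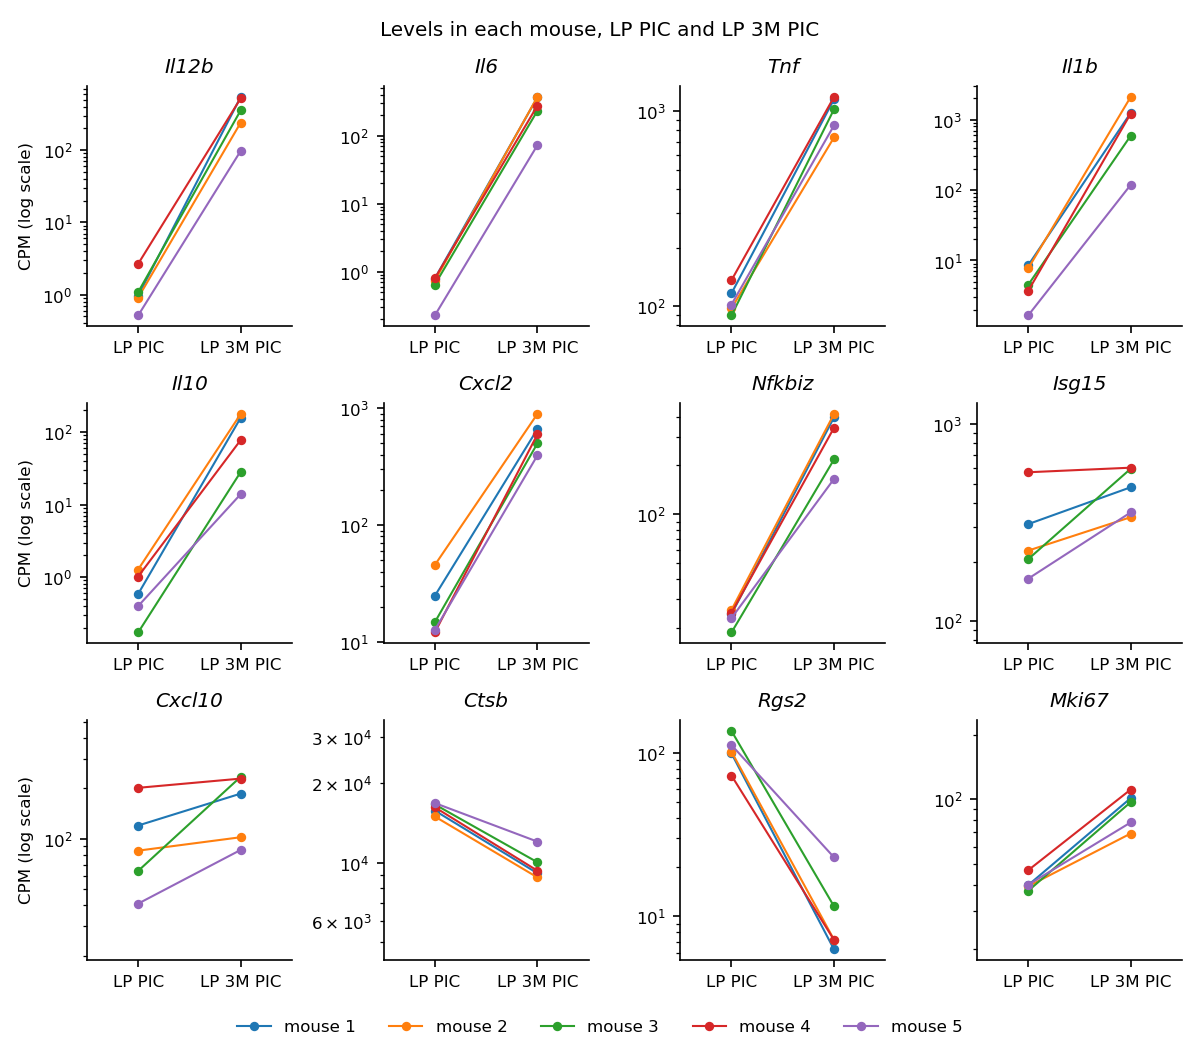
Level of 12 genes in LP PIC and LP 3M PIC of each of 5 mice, in CPM on a log axis, with a line joining the 2 libraries of a mouse. Lines of Il12b, Il6, Il1b, Il10, Cxcl2, Tnf and Nfkbiz climb in all 5 mice without overlap of the groups, those of Isg15 and Cxcl10 overlap between the groups, Ctsb and Rgs2 descend, and Mki67 rises.

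Other cytokine genes followed at lower levels. Csf2, encoding GM-CSF, was at most 0.173 CPM in LP PIC and stood at 3.21, 2.48, 1.98, 2.81 and 0.256 CPM in LP 3M PIC (5.41 ± 0.96). Lif, an IL-6 family cytokine, rose from 0.909 to 8.31 CPM (3.17 ± 0.44). Il27, encoding the p28 chain of IL-27, rose from 3.39 to 18.4 CPM (2.43 ± 0.44), and its partner chain gene Ebi3 rose by 1.64. Lta, Inhba, Tnfsf15 and Tnfsf9 rose by 1.301 to 1.77. The 2 lower genes encode cytokines that act on natural killer and T cells. Il18 fell from 8.56 to 5.17 CPM (-0.73 ± 0.22, adjusted p = 0.0124), without overlap of the groups. Il15 stood at 39.6 and 24.4 CPM (-0.71 ± 0.28, adjusted p = 0.0457) and was not called without mouse 1, 2 or 4, with adjusted p up to 0.198 over the alternatives, which leaves Il18 as the only lower member. Ifnb1, encoding interferon beta, stood at 1.17, 1.56, 0.777, 1.64 and 0.228 CPM in LP PIC and at 2.82, 6.66, 0.905, 1.35 and 1.75 CPM in LP 3M PIC (1.32 ± 0.52, adjusted p = 0.0509). It was higher in 4 of 5 mice, the groups overlapped, and with the mouse as a block the adjusted p was 0.0197.

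Chemokines that draw neutrophils had the highest median change of the 31 lists. Of 5 tested members 4 were higher and none lower, with a median of 4.79. Cxcl1 rose from 1.26 to 85.2 CPM (6.02 ± 0.59, adjusted p = 6.86e-07) and Cxcl3 from 4.74 to 178 CPM (5.21 ± 0.82). Cxcl2 stood at 24.8, 45.5, 14.8, 12.1 and 12.7 CPM in LP PIC and at 663, 895, 500, 597 and 395 CPM in LP 3M PIC (4.79 ± 0.48, adjusted p = 8.54e-07). Cxcl5 rose from 0.155 to 1.48 CPM (3.16 ± 0.86) but was not called without mouse 2 (adjusted p = 0.0541). Chemokines that draw T cells gave 4 of 9 higher and none lower, with a median of 0.71. Ccl3 rose from 117 to 1782 CPM (3.93 ± 0.31, adjusted p = 7.12e-08), Ccl4 from 77.7 to 498 CPM, Ccl22 from 12.6 to 60.6 CPM and Ccl17 from 0.0780 to 2.35 CPM, while the interferon-induced member Cxcl10 is described below.

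Monocyte-drawing chemokines split. Of 9 tested members 4 were higher and 2 lower, with a median of 0.27. Ccl7 rose from 10.5 to 414 CPM (5.29 ± 0.68) and Ccl2 from 50.7 to 610 CPM (3.59 ± 0.49), and the membrane-bound Cx3cl1 rose from 1.73 to 7.66 CPM. Ccl12 rose from 2.26 to 8.96 CPM and was not called without mouse 2 (adjusted p = 0.117). Ccl6 moved against them, from 104, 123, 122, 72.4 and 56.6 CPM in LP PIC to 15.9, 16.4, 25.9, 11.1 and 23.2 CPM in LP 3M PIC (-2.38 ± 0.39, adjusted p = 9.85e-05). Cxcl14 stood at 23.4 and 10.1 CPM and was not called without mouse 1, 2, 3 or 4 (adjusted p up to 0.172), so that Ccl6 was then the only lower member.

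Among 17 tested chemokine and chemoattractant receptors, 5 were higher and 3 lower, with a median of -0.23 and a mean of 0.52. The receptors of formylated bacterial peptides rose most, Fpr1 from 1.65 to 142 CPM (6.403 ± 0.42, adjusted p = 8.97e-09) and Fpr2 from 16.7 to 233 CPM (3.80 ± 0.42). Ccr7, which guides cells to lymph nodes, rose from 2.47 to 25.6 CPM (3.36 ± 0.58), with groups that overlapped in the highest LP PIC library. C5ar1, the receptor of complement C5a, rose by 1.46 ± 0.25 and the purine receptor gene P2ry13 by 1.40 ± 0.38. Cxcr4, the receptor of CXCL12, fell from 273 to 81.5 CPM (-1.74 ± 0.43) and Cxcr3 from 1.70 to 0.613 CPM. Ptafr, the receptor of platelet-activating factor, was lower by -0.86 ± 0.28 and not called without mouse 1, 2 or 4 (adjusted p up to 0.0999).

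NF-kB subunits, inhibitors and direct targets rose in 24 of 30 members, none was lower, and the groups did not overlap for 19 of them. The median was 0.97. Nfkbiz, encoding I-kappa-B zeta, a coactivator needed for secondary response genes, stood at 24.2, 25.7, 18.7, 24.7 and 22.9 CPM in LP PIC and at 396, 415, 218, 341 and 165 CPM in LP 3M PIC (3.72 ± 0.27, adjusted p = 3.1e-08). Zc3h12a, encoding the RNase Regnase-1 that degrades cytokine mRNAs, rose from 41.2 to 256 CPM (2.63 ± 0.16, adjusted p = 1.83e-09). Both groups were narrow in Zc3h12a, at 37.0 to 46.3 and 184 to 328 CPM. The early response gene Ier3 rose by 2.51 ± 0.33, the inhibitor gene Nfkbia by 1.47 ± 0.17 and the deubiquitinase gene Tnfaip3 (A20) by 1.37 ± 0.14. Among the subunits, Rel rose by 1.25, Nfkb1 by 0.72 and Nfkb2 by 0.55.

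MAP kinase phosphatases and AP-1 family factors gave 13 of 26 higher and 4 lower, with a median of 0.73. Batf, a basic leucine zipper partner of JUN proteins, rose from 15.1 to 103 CPM (2.77 ± 0.30, adjusted p = 2.37e-06), and the small MAF gene Maff from 6.09 to 26.5 CPM (2.12 ± 0.22). Dusp2, a nuclear phosphatase of ERK and p38, stood at 1.21, 1.23, 1.55, 1.15 and 1.77 CPM against 34.7, 14.4, 15.9, 30.6 and 3.63 CPM (3.84 ± 0.42, adjusted p = 2.26e-06). Dusp16 rose from 22.4 to 109 CPM, Egr3 by 1.97 ± 0.57 and Myc by 1.58 ± 0.32. Egr2, a paralog of Egr3 (-1.86 ± 0.37), and Mafk, a paralog of Maff (-0.38 ± 0.08), fell. The lower calls of Dusp8 (-0.46 ± 0.16) and Jun (-0.36 ± 0.11) were lost without mouse 1, and the list then held 2 lower members. Dusp8 was lost also without mouse 2 or 5 and Jun without mouse 4, with adjusted p up to 0.134 and 0.0699.

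In the edgeR fit over all 20 libraries without the mouse as a block, no interferon-stimulated antiviral gene was called, unlike most of the cytokines. In that fit none of 49 tested members was called in either direction and 2 had an unadjusted p under 0.05. DESeq2, also without the block, called none. Fitted on the 10 libraries with the mouse as a block, 11 members were higher and 2 lower. The median was 0.08 (mean -0.01), and mouse medians ran from -0.36 to 0.49. Isg15, a ubiquitin-like protein, stood at 311, 228, 206, 571 and 164 CPM in LP PIC and at 479, 337, 595, 602 and 356 CPM in LP 3M PIC (0.68 ± 0.50, adjusted p = 0.285). It was higher in 5 of 5 mice, the groups overlapped, and the adjusted p over the alternatives ran up to 0.445. Fitted on the 10 libraries with the mouse as a block, it was called higher (0.77, adjusted p = 0.0184). Cxcl10, a chemokine induced by interferons and NF-kB, stood at 120, 84.9, 64.3, 201 and 41.0 CPM against 186, 102, 234, 229 and 85.8 CPM (0.71 ± 0.38, adjusted p = 0.135). It too was higher in 5 of 5 mice, and with the mouse as a block its adjusted p was 0.0128, over a range of 0.0128 to 0.432. Rsad2, encoding viperin, gave -0.20 ± 0.48, Irf7, the factor that amplifies interferon, -0.20 ± 0.54 and Mx1, a GTPase that blocks influenza viruses, 0.15 ± 0.55, with adjusted p between 0.755 and 0.848.

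The members of the antiviral list nearest to a call lay on opposite sides. Oasl1, an inhibitor of IRF7 translation, stood at 286 and 614 CPM (1.10 ± 0.48, adjusted p = 0.0695) and Ifit1bl1 at 84.9 and 32.4 CPM (-1.40 ± 0.65, adjusted p = 0.086). With the mouse as a block, 3 members were higher, among them Oasl1 (adjusted p = 0.00473), and 1 lower. Fitted on the 10 libraries alone, 2 were higher and 1 lower, and with the block as well 11 and 2. Without mouse 4, 1 member, Oasl1, was higher, and without mouse 3, 2 were lower, among them Ifit1bl1 (adjusted p = 0.0253). PIC itself had raised these genes, by a median of 1.83 in LP PIC over LP, a comparison that shares the LP PIC libraries.

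Interferon-gamma-type GTPases, which act on vacuoles of intracellular pathogens, gave none higher and 2 lower of 16, with a median of -0.23. Gbp8 fell from 7.66 to 1.52 CPM (-2.36 ± 0.46, adjusted p = 0.000448), without overlap. Tgtp1 stood at 7.45, 3.95, 2.46, 9.76 and 0.570 CPM against 0.876, 0.810, 2.47, 2.05 and 0.939 CPM (-1.80 ± 0.57), was lower in 3 of 5 mice, and was not called without mouse 1, 2 or 4 (adjusted p up to 0.102), which leaves 1 lower member. PIC on LP had raised this list by a median of 3.91.

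Few antigen presentation genes of either class were called. MHC class I and its loading machinery gave 2 higher and 2 lower of 23, with a median of -0.19, and with the mouse as a block 5 were lower. H2-D1, a classical class I heavy chain, fell from 1855 to 1289 CPM (-0.53 ± 0.14, adjusted p = 0.00416), without overlap of the groups. The loading factor gene Tapbpl (-0.57 ± 0.22), the chaperone gene Pdia3 (0.30 ± 0.11) and H2-T10 (0.59 ± 0.21) each lost the call without mouse 1 and without mouse 2. Without mouse 1 or 2 the list held 1 lower and no higher member, without mouse 3 it held 6 lower and none higher, and without mouse 4 it held 1 in each direction. Class II presentation gave 1 higher and 2 lower of 13, with a median of -0.21. Ctss, encoding cathepsin S that trims the invariant chain, fell from 5093 to 2480 CPM (-1.04 ± 0.14, adjusted p = 1.21e-05), and Ifi30, a lysosomal thiol reductase, from 215 to 100.1 CPM (-1.10 ± 0.20). H2-Ob, a subunit of the peptide-editing modulator H2-O, rose from 0.640 to 1.77 CPM (1.43 ± 0.32).

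Class II chains themselves diverged between mice. H2-Ab1 stood at 902, 835, 771, 797 and 658 CPM in LP PIC and at 418, 294, 1132, 800 and 792 CPM in LP 3M PIC (-0.21 ± 0.36, adjusted p = 0.666). Ciita, the master regulator of class II, stood at 36.5, 37.5, 36.0, 39.8 and 22.1 CPM against 24.5, 8.82, 98.0, 61.2 and 47.1 CPM (0.47 ± 0.44, adjusted p = 0.401). Both genes were lower in the dual library of mice 1 and 2 and higher in that of mice 3 and 5. In mouse 4 Ciita was higher, while H2-Ab1 hardly differed (797 and 800 CPM). The invariant chain gene Cd74 stood at 1357 and 793 CPM (-0.78 ± 0.46, adjusted p = 0.178) and H2-Aa at 628 and 429 CPM (-0.55 ± 0.48, adjusted p = 0.365). Reads of class I and class II genes, GTPases and Bcl2a1 copies may be split between near-identical genes, since the handling of such reads was not given in the sources used here.

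Costimulation and checkpoint genes moved both ways, 11 of 23 higher and 6 lower, with a median of 0.19. Cd40, the receptor through which T cells license macrophages, stood at 61.2, 45.7, 32.2, 105 and 26.1 CPM in LP PIC and at 218, 123, 397, 368 and 136 CPM in LP 3M PIC (2.20 ± 0.38, adjusted p = 0.000179). Cd274, encoding PD-L1, rose from 450 to 869 CPM (0.95 ± 0.22, adjusted p = 0.00169), without overlap of the groups. Slamf7 rose by 1.21 ± 0.16 and Tnfsf9, the 4-1BB ligand, by 1.301 ± 0.19. The tryptophan-degrading enzyme genes Ido2 (3.12 ± 0.51) and Ido1 (2.48) rose as well. Havcr2, encoding TIM-3, fell from 67.4 to 20.5 CPM (-1.71 ± 0.28) and the inhibitory receptor gene Cd200r1 from 80.4 to 39.5 CPM (-1.02 ± 0.16). The B7 genes Cd80 and Cd86 were not called higher. Cd80 stood at 11.5 and 13.1 CPM (0.19 ± 0.19, adjusted p = 0.443) and Cd86 at 51.8 and 33.1 CPM (-0.65 ± 0.21, adjusted p = 0.0175), and Cd86 was not called without mouse 1, 2 or 4 (adjusted p up to 0.101).

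**Figure D3:**
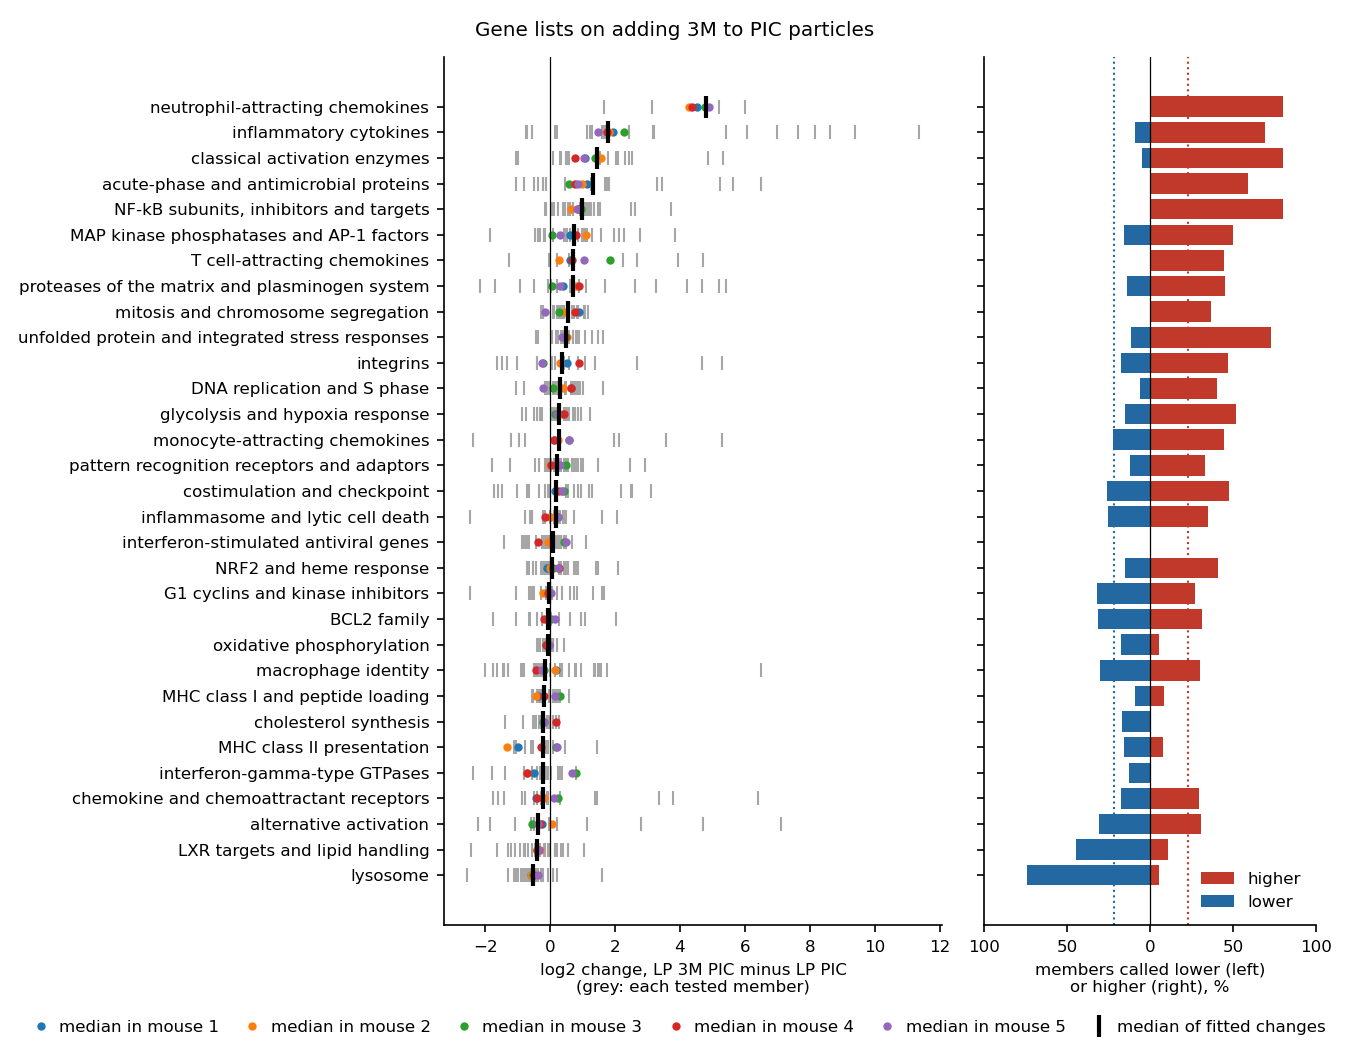
Left, log2 change of the tested members of 31 gene lists (grey ticks), with the median in each mouse (coloured dots) and the median of the fitted changes (black bar). Right, percent of the tested members called lower (blue, left) or higher (red, right), with dotted lines at the shares over all tested genes, 21.4% and 23.1%. Neutrophil-attracting chemokines have the highest median, 4.79, and lysosome the lowest, -0.54.

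Enzymes of classical activation rose in 16 of 20 tested members and 1 was lower, with a median of 1.437. Ptgs2, encoding cyclooxygenase-2, stood at 47.8, 73.4, 21.9, 31.9 and 8.90 CPM in LP PIC and at 1931, 1970, 1325, 1660 and 510 CPM in LP 3M PIC (5.33 ± 0.65, adjusted p = 6.46e-06). Cd38, an NAD-consuming enzyme, rose from 6.65 to 195 CPM (4.86 ± 0.72), the prostaglandin E synthase gene Ptges from 228 to 1239 CPM (2.44 ± 0.49) and the arginine transporter gene Slc7a2 from 178 to 1020 CPM (2.52 ± 0.51). Arg2, an arginase, stood at 6.90 ± 1.03 and 8.64 ± 2.31 CPM and was not called (adjusted p = 0.199). Irg1 (now Acod1), which makes itaconate, rose from 522 to 1794 CPM (1.78 ± 0.33), and the mitochondrial dismutase gene Sod2 from 600 to 1739 CPM (1.54 ± 0.16). Nos2, the inducible nitric oxide synthase, stood at 133, 101, 45.1, 165 and 20.9 CPM against 216, 298, 332, 286 and 113 CPM (1.42 ± 0.53, adjusted p = 0.0369). It was higher in 5 of 5 mice with overlapping groups, and DESeq2 or leaving out mouse 1, 2, 3 or 4 ended its call (adjusted p up to 0.158). Alox5ap, which feeds leukotriene synthesis, fell from 172 to 83.4 CPM (-1.05 ± 0.26). Without mouse 3, or with the mouse as a block, a second member was lower.

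Acute-phase and antimicrobial proteins rose in 10 of 17 tested members with none lower, at a median of 1.34, and 1 was lower without mouse 5 or with the mouse as a block. Marco, a scavenger receptor for bacteria, rose from 2.45 to 226 CPM (6.51 ± 0.65, adjusted p = 8.84e-07). Lcn2, which binds bacterial siderophores, stood at 18.5, 11.3, 33.1, 65.5 and 58.6 CPM against 1960, 3446, 370, 1032 and 192 CPM (5.23 ± 0.85). Saa3, an acute-phase apolipoprotein, stood at 2228, 1919, 481, 2031 and 428 CPM against 22070, 32280, 5463, 13540 and 4256 CPM (3.45 ± 0.80, adjusted p = 0.00204). Mice 1, 2 and 4 were high and mice 3 and 5 low in Saa3 on both sides. S100a8, a calgranulin, stood at 2.10 to 4.28 CPM in LP PIC and at 104, 564, 3.46, 19.2 and 8.15 CPM in LP 3M PIC (5.63 ± 1.10, adjusted p = 0.000505), so its groups overlapped through mouse 3, and fitted on the 10 libraries with the mouse as a block it was not called (adjusted p = 0.0501).

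Proteases of the matrix and the plasminogen system gave 10 of 22 higher and 3 lower, with a median of 0.70. Mmp9, a gelatinase, stood at 10.4, 16.7, 1.64, 8.16 and 1.88 CPM against 364, 1082, 52.5, 134 and 36.6 CPM (5.41 ± 1.33, adjusted p = 0.00316). Serpinb2, a plasminogen activator inhibitor, rose from 26.0 to 974 CPM (5.22 ± 1.27), the collagenase gene Mmp13 from 5.67 to 147 CPM (4.69 ± 1.04) and the aggrecanase gene Adamts4 from 0.306 to 5.81 CPM (4.22 ± 0.44). The elastase gene Mmp12 fell from 610 to 137 CPM (-2.15 ± 0.51) and the inhibitor gene Timp2 from 317 to 97.8 CPM (-1.70 ± 0.16). Mmp19 (-0.50 ± 0.18) was not called without mouse 1, 2, 4 or 5 (adjusted p up to 0.104).

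Macrophage identity genes were called in equal numbers each way, 10 higher and 10 lower of 33, with a median of -0.15 and a mean of 0.11. Adgre1, encoding F4/80, rose from 736 to 2479 CPM (1.75 ± 0.21, adjusted p = 6.01e-06), and Cd14, the lipopolysaccharide co-receptor, from 449 to 1249 CPM (1.48 ± 0.19). Itgam, encoding CD11b, stood at 372, 298, 424, 198 and 429 CPM against 1228, 1898, 366, 698 and 326 CPM (1.39 ± 0.41, adjusted p = 0.00968). It was lower in mice 3 and 5, and it was not called without mouse 2 (adjusted p = 0.0994) or when fitted on the 10 libraries with the mouse as a block (adjusted p = 0.122). The lower members included a transcription factor and receptors for lipids and dying cells. The myeloid factor gene Cebpa fell from 110 to 27.4 CPM (-2.005 ± 0.33). Trem2, a lipid-sensing receptor, fell from 769 to 229 CPM (-1.75 ± 0.26) and Mertk, a receptor for apoptotic cells, from 50.2 to 18.4 CPM (-1.45 ± 0.28). Csf1r, the receptor of CSF-1, fell from 1929 to 1403 CPM (-0.46 ± 0.11, adjusted p = 0.00193), with overlapping groups.

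Genes of alternative activation also split, 4 higher and 4 lower of 13, with a median of -0.38 and a mean of 0.68. The mannose receptor gene Mrc1 stood at 74.4, 67.0, 21.6, 30.9 and 25.7 CPM against 14.3, 9.23, 4.20, 5.13 and 13.9 CPM (-2.21 ± 0.59, adjusted p = 0.00518), and the lipid-sensing factor gene Pparg fell from 16.7 to 7.89 CPM (-1.07 ± 0.15). Egr2, already named, fell too, and Tgm2 (-0.50 ± 0.17) was not called without mouse 1 or 3 (adjusted p up to 0.0982). Arg1, encoding arginase-1, stood at 0.168 CPM or less in LP PIC and at 11.9, 34.0, 0.165, 0.486 and 0.0853 CPM in LP 3M PIC (7.11 ± 1.85, adjusted p = 0.00465). The Arg1 rise was thus large in mice 1 and 2 and within a few reads in mice 3, 4 and 5. Il4ra, the IL-4 receptor chain, rose from 110 to 244 CPM (1.15 ± 0.25). Ccl17 is named above, and the scavenger receptor gene Cd163 (0.0592 and 0.389 CPM) was not called without mouse 2 (adjusted p = 0.0579).

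Pattern recognition receptors and their adaptors gave 11 of 33 higher and 4 lower, with a median of 0.23. Tlr1 rose from 21.4 to 164 CPM (2.94 ± 0.36, adjusted p = 6.75e-06) and Tlr6 from 17.5 to 31.7 CPM (0.86 ± 0.11), which are the partners of TLR2. Tlr2 itself stood at 523 and 532 CPM (0.02 ± 0.20, adjusted p = 0.935) and Tlr4 at 63.6 and 50.7 CPM (-0.33 ± 0.19, adjusted p = 0.159). Irak3, a brake on TLR signalling, stood at 53.8, 54.8, 53.0, 54.5 and 53.5 CPM in LP PIC and at 359, 393, 225, 271 and 251 CPM in LP 3M PIC (2.48 ± 0.15, adjusted p = 1.83e-09), with LP PIC libraries that barely differed. Clec7a, encoding dectin-1, fell from 187 to 54.1 CPM (-1.79 ± 0.38) and Tlr13, a sensor of bacterial ribosomal RNA, from 326 to 139 CPM (-1.23 ± 0.20). Irak1 fell by 0.46 on the log2 scale, and Irak4 (-0.15 ± 0.05) was not called without mouse 1 or 3 (adjusted p up to 0.121).

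Inflammasome and lytic cell death genes gave 7 of 20 higher and 5 lower, with a median of 0.18, and 4 were higher without mouse 1 or without mouse 2. Nlrp3 stood at 84.0, 75.2, 70.0, 76.9 and 65.4 CPM against 326, 365, 285, 326 and 242 CPM (2.05 ± 0.12, adjusted p = 1.83e-09), and the groups stood far apart. The pyrin gene Mefv rose by 1.60. Nlrc4 and Nlrp1a rose by 0.41 and 0.45. Other sensors fell. Nlrp1b fell from 14 to 2.52 CPM (-2.45 ± 0.31), the DNA sensor gene Aim2 from 63.0 to 37.2 CPM (-0.76 ± 0.12), and the flagellin sensor genes Naip5 (-0.60 ± 0.12) and Naip6 (-0.56 ± 0.13) fell. Pycard, the adaptor ASC shared by these sensors, fell from 72.8 to 49.99 CPM (-0.54 ± 0.10).

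Most lysosomal genes fell. Of 35 tested members 26 were lower and 2 higher, with a median of -0.54 and mouse medians from -0.59 to -0.37, and the groups did not overlap for 14 of the lower members. Ctsb, the protease cathepsin B, stood at 15750, 14960, 16620, 16210 and 16820 CPM in LP PIC and at 9112, 8786, 10030, 9315 and 12010 CPM in LP 3M PIC (-0.71 ± 0.10, adjusted p = 3.27e-05). Psap, the precursor of the saposins that assist lipid hydrolases, fell from 14020 to 8103 CPM (-0.79 ± 0.22). Tfeb, a factor that drives lysosomal genes, fell from 57.5 to 33.1 CPM (-0.80 ± 0.19), and Atp6v0d2, a proton pump subunit, from 190 to 32.0 CPM (-2.57 ± 0.44). Lamp1 (-0.54), Gusb (-0.66) and Ctsd (-0.60) fell too. Ctsc, the cathepsin that activates granule proteases, moved against the list, from 235 to 713 CPM (1.60 ± 0.24). The rise of Tfe3, a paralog of Tfeb (0.23 ± 0.08), was not called without mouse 1, 2 or 4 (adjusted p up to 0.155), which leaves Ctsc as the higher member.

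Lipid handling genes were called lower more often than higher. LXR targets and lipid genes gave 12 of 27 lower and 3 higher, with a median of -0.41, and 5 were higher with the mouse as a block. The fatty acid binding protein gene Fabp4 fell from 82.0 to 15.2 CPM (-2.42 ± 0.36), the lysosomal lipase gene Lipa from 1291 to 529 CPM (-1.29 ± 0.26) and the lipoprotein lipase gene Lpl from 398 to 172 CPM (-1.21 ± 0.32). Abcg1, a cholesterol exporter, stood at 207, 210, 170, 200 and 160 CPM against 106, 100.3, 116, 117 and 101 CPM (-0.81 ± 0.08, adjusted p = 9.61e-07). Nr1h3, which encodes LXR alpha itself, rose from 72.9 to 149.8 CPM (1.04 ± 0.25). The rises of Acsl1 (0.55 ± 0.20) and Lpcat1 (0.33 ± 0.13) lost their calls without 3 of the mice each, mouse 4 among them in both, and Nr1h3 was then the only higher member. Cholesterol synthesis gave 4 of 24 lower and none higher, with a median of -0.20. Dhcr7, the last step to cholesterol, fell from 21.1 to 7.99 CPM (-1.40 ± 0.17, adjusted p = 6.89e-06), and Msmo1 (-0.46), Ebp (-0.29) and Nsdhl (-0.26) lost their calls without mouse 1, which leaves 1 lower member. Without mouse 2 the list held 2 lower members, and with the mouse as a block 7 lower and 1 higher.

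Glycolysis and hypoxia response genes rose in 14 of 27 members and 4 were lower, with a median of 0.28, and 13 of the higher genes had groups that did not overlap. Pfkfb3, the kinase that makes the main activator of phosphofructokinase, rose from 80.4 to 190 CPM (1.24 ± 0.29). The glucose transporter gene Slc2a1 rose from 75.5 to 147 CPM (0.96 ± 0.17) and the phosphofructokinase gene Pfkl from 81.9 to 147 CPM (0.85 ± 0.13). Ldha (0.44), Pkm (0.50), Pgk1 (0.72) and Hk2 (0.79) rose by smaller amounts. Vegfa, the vascular growth factor, fell from 51.9 to 28.5 CPM (-0.86 ± 0.19). The lower isoform genes Pfkm (-0.49), Pfkp (-0.40) and Hk3 (-0.31) lost their calls without mouse 1 (2 lower members were then called in the list). Oxidative phosphorylation gave 6 of 35 lower and 2 higher, with a median of -0.07. Sdhd, a succinate dehydrogenase subunit, fell from 135 to 103 CPM (-0.39 ± 0.07, adjusted p = 0.000213). Without mouse 1, 2 or 4 the list held 3 lower and 1 higher, and with the mouse as a block 10 lower. The higher genes were Cycs, cytochrome c (0.42 ± 0.13), and the ATP synthase gene Atp5b (0.21 ± 0.07). Cycs was not called without mouse 2 and Atp5b without mouse 1 or 4 (adjusted p up to 0.0589 and 0.125).

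Targets of the oxidative stress factor NRF2 gave 11 of 27 higher and 4 lower, with a median of 0.07. The cystine transporter gene Slc7a11 rose from 99.9 to 429 CPM (2.10 ± 0.29, adjusted p = 1.96e-05), heme oxygenase Hmox1 from 1088 to 3023 CPM (1.47 ± 0.23) and glutathione reductase Gsr from 96.0 to 254 CPM (1.40 ± 0.12). The glutathione peroxidase genes Gpx1 (-0.68 ± 0.11) and Gpx4 (-0.52 ± 0.12) fell, as did the NRF2 antagonist gene Bach1 (-0.43 ± 0.11). Taldo1 (-0.64 ± 0.22) was not called without mouse 1, 2, 3 or 4 (adjusted p up to 0.0972). Genes of the unfolded protein and integrated stress responses rose in 19 of 26 members and 3 were lower, with a median of 0.49 and mouse medians from 0.37 to 0.52. Genes of amino acid supply were among the higher members. Slc7a5, a transporter of large amino acids, rose from 10.7 to 30.2 CPM (1.49 ± 0.17, adjusted p = 2.71e-06), the serine synthesis gene Psat1 from 6.25 to 19.3 CPM (1.63 ± 0.26) and the mitochondrial folate gene Mthfd2 from 48.7 to 88.3 CPM (0.86 ± 0.10). Chaperones rose less, Hspa5 by 0.34 ± 0.08. The kinase gene Eif2ak3 (-0.40 ± 0.10) and Cebpg (-0.38 ± 0.07) fell, and the death factor gene Ddit3 (-0.44 ± 0.12) was not called without mouse 4 (adjusted p = 0.0616).

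Proliferation genes were called higher more often than lower. Mki67, encoding the Ki-67 antigen of cycling cells, stood at 39.7, 39.2, 37.3, 46.6 and 39.9 CPM in LP PIC and at 101, 69.2, 97.0, 111 and 78.0 CPM in LP 3M PIC (1.17 ± 0.19, adjusted p = 7.85e-05). Its groups did not overlap, and both lay below the 265 CPM of LP in the mean. Genes of mitosis gave 11 of 30 higher and none lower, with a median of 0.54. Mouse medians ran from -0.16 to 0.90, and the groups did not overlap for 2 members. The number higher was 4, 5 and 3 without mice 1, 2 and 4 and 16 without mouse 5. Top2a, the topoisomerase of chromosome separation, stood at 18.5 and 33.7 CPM (0.86 ± 0.24) and was not called without mouse 4 (adjusted p = 0.0681), and Hmmr, a spindle protein, rose from 2.11 to 4.45 CPM (1.07 ± 0.27). Genes of DNA replication gave 13 of 32 higher and 2 lower, with a median of 0.32, and 7, 8 and 6 were higher without mice 1, 2 and 4. Thymidylate synthase Tyms rose from 4.69 to 14.6 CPM (1.64 ± 0.21, adjusted p = 9.96e-06) and the replication licensing gene Cdt1 from 43.6 to 82.3 CPM (0.92 ± 0.13). E2f2 (-1.04 ± 0.29) and Dut (-0.79 ± 0.17) fell. In the 7 lists above in which edgeR called members in 1 direction alone, DESeq2 called none in the other direction either. At an unadjusted p under 0.05 in that other direction stood 2 acute-phase genes, lower, 1 cholesterol synthesis gene, higher, and none of the neutrophil and T cell chemokines, the NF-kB genes, the GTPases and the mitosis genes.

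Regulators of the G1 phase went both ways, 6 of 22 higher and 7 lower, with a median of -0.03 and a mean of 0.03, and without mouse 4 there were 4 lower. Cyclin genes of the D type parted, Ccnd2 rising from 8.40 to 26.8 CPM (1.66 ± 0.36) and Ccnd1 falling from 29.6 to 14.4 CPM (-1.03 ± 0.26). Gadd45b, a stress-induced gene, rose from 43.5 to 132 CPM (1.60 ± 0.21) and Rbl2, which holds cells at rest, fell from 57.4 to 41.1 CPM (-0.48 ± 0.08). The inhibitor gene Cdkn1c varied between mice, at 14.4, 13.5, 111, 23.8 and 52.6 CPM in LP PIC and 0.828, 0.720, 19.8, 3.56 and 15.4 CPM in LP 3M PIC. Its change (-2.46 ± 0.89, adjusted p = 0.0307) was not called without mouse 3, 4 or 5 (adjusted p up to 0.0989).

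The BCL2 family gave 5 of 16 higher and 5 lower, with a median of -0.06 and a mean of 0.00. Death-promoting members Bmf (-1.77 ± 0.33) and Bbc3, encoding PUMA (-1.05 ± 0.18), fell without overlap. The lower calls of Pmaip1 (-0.64 ± 0.21) and Bcl2l11 (-0.39 ± 0.13) were lost without mouse 1 or 2 (3 lower members then), with adjusted p up to 0.137. The survival gene Mcl1 fell from 701 to 453 CPM (-0.63 ± 0.09, adjusted p = 3.7e-05), whereas the survival genes Bcl2a1a (1.09 ± 0.25), Bcl2a1d (0.97 ± 0.28) and Bcl2a1b (0.60 ± 0.15) rose. Bik, a death promoter, rose at a low level, from 0.173 to 0.732 CPM, and Bcl2l2 (0.27 ± 0.08) was not called without mouse 1 (adjusted p = 0.0586). Integrins gave 8 of 17 higher and 3 lower, with a median of 0.37. Itga9 rose from 1.36 to 53.7 CPM (5.30 ± 0.54, adjusted p = 9.93e-07), Itgb8, which activates TGF beta, from 0.233 to 6.29 CPM (4.69 ± 0.91), and Itgal, the alpha chain of LFA-1, from 165 to 1052 CPM (2.67 ± 0.37). The beta chains of vitronectin receptors, Itgb3 (-1.62 ± 0.47) and Itgb5 (-1.49 ± 0.29), fell, as did Itgb7 (-1.32 ± 0.32).

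The same addition could be followed without PIC, as LP 3M minus LP in the same 5 mice, which shares no library with the comparison above. The LP library of mouse 2 held 9.74 M gene counts, the fewest of the 20 libraries. It called 4790 genes, and 3086 genes were called in both, which is 57.2% of the genes called with PIC and 64.4% of those called without it. The direction was the same for 2976 of them and opposite for 110. The difference between the 2 changes, (LP 3M PIC minus LP PIC) minus (LP 3M minus LP), was called as an interaction for 1023 genes (8.43%), 463 above 0 (3.82%) and 560 below 0 (4.62%). These counts depended on single mice. They fell to 182 (60 above, 122 below), 291 (105 and 186) and 242 (88 and 154) without mice 1, 2 and 4, and 364 were below 0 without mouse 3. The interaction was called for 362 genes called with PIC and not without it. It was also called for all 110 genes of opposite direction. Since the interaction is the difference of the 2 changes, opposite calls in both made this likely beforehand. The amounts of PIC and of 3M on the particles are not given, so equal doses in the compared groups could not be checked.

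Mitosis and replication lists held interactions above 0. The interaction was above 0 for 23 of 30 mitosis genes and 10 of 32 replication genes, and below 0 for none. The median change of the mitosis list was 0.54 with PIC and -0.78 without it, where PIC alone had lowered it by a median of -3.11. Mki67 stood at 265 CPM in LP, 156 CPM in LP 3M, 40.5 CPM in LP PIC and 91.3 CPM in LP 3M PIC (interaction 1.94, adjusted p = 0.00021), and Cdt1 gave 1.32. The interaction of Top2a (1.52) was not called without mouse 1, 2 or 4, and the mitosis list held 2, 4 and 5 called members without mice 1, 2 and 4 and the replication list 1, 2 and 3.

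**Figure D4:**
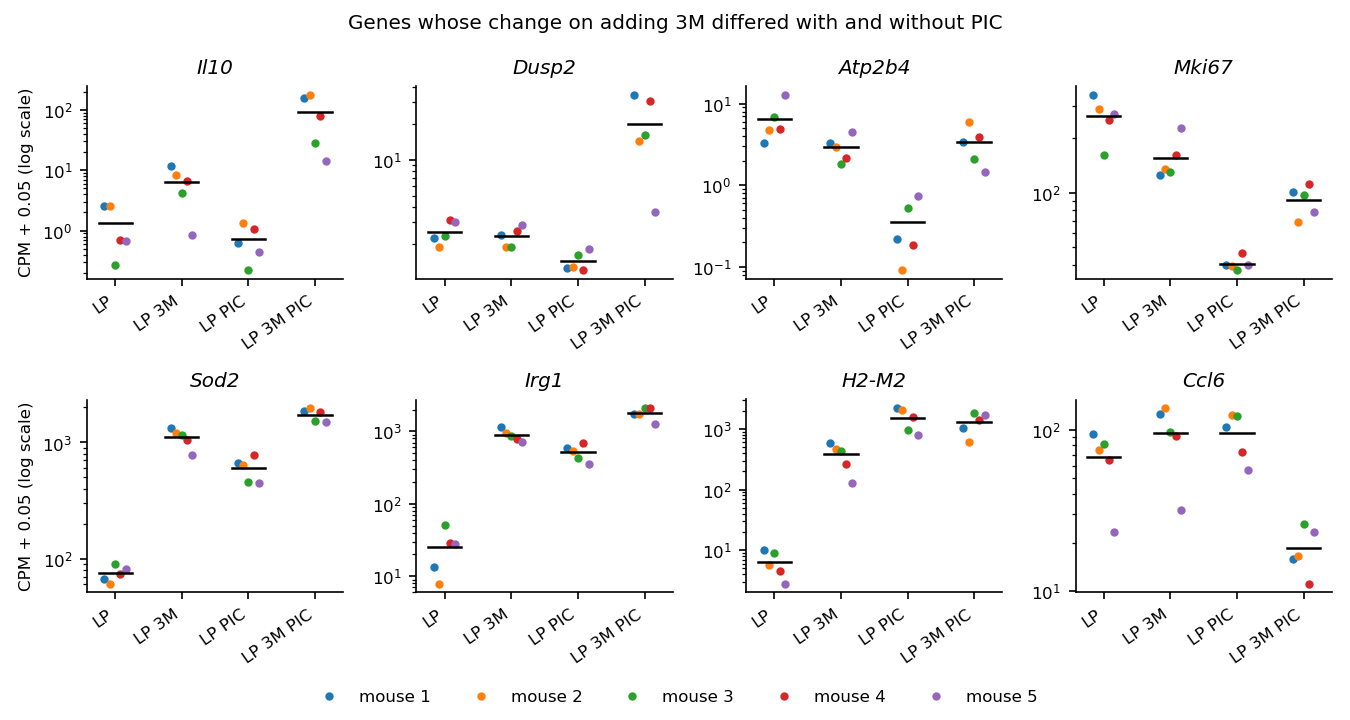
Level of 8 genes in LP, LP 3M, LP PIC and LP 3M PIC, in CPM plus 0.05 on a log axis, with a point for each mouse and a bar at the mean of the group. Il10, Dusp2, Atp2b4 and Mki67 rise from LP PIC to LP 3M PIC, while from LP to LP 3M Il10 rises less and the others do not rise. Sod2 and Irg1 rise less from LP PIC to LP 3M PIC than from LP to LP 3M. H2-M2 and Ccl6 are higher in LP 3M than in LP and do not rise from LP PIC to LP 3M PIC.

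Among the interactions above 0 were those of a calcium pump and a phosphatase gene. Atp2b4, a calcium pump of the plasma membrane, gave the largest positive interaction among the genes named by rule, 4.68 (adjusted p = 0.00065). It rose from 0.3002 to 3.31 CPM with PIC (3.52 ± 0.56) and changed by -1.16 without it. Dusp2 changed by 3.84 with PIC and by -0.15 without it (interaction 3.99, adjusted p = 0.0004), and 7 of the 26 MAP kinase phosphatase and AP-1 genes had an interaction above 0 (2, 3 and 1 without mice 1, 2 and 4). Il10 changed by 7.01 and 2.39 (interaction 4.61, adjusted p = 0.0226), but this was not called without mouse 1, 2 or 4 (adjusted p = 0.158, 0.0926 and 0.0889). Sez6l2, Shisa9 and Htra4, also named by the rule for interactions above 0, lost that call without mouse 1 (adjusted p = 0.0656, 0.0674 and 0.127). Sez6l2 lost it also without mouse 2, Shisa9 without mouse 4 and Htra4 without mouse 2 or 4. Cx3cl1 gave 2.89 and Ccnd2 2.64, and these were called under every alternative run.

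The NF-kB, enzyme and acute-phase lists held interactions below 0. The interaction was below 0 for 10 of 30 NF-kB genes, 9 of 20 classical activation enzymes and 9 of 17 acute-phase genes, and above 0 for none of them, although with the mouse as a block it was above 0 for 3 of the enzymes. Without mice 1, 2 and 4 the NF-kB list held 4, 6 and 5 called members and the acute-phase list 4, 5 and 4, and without mouse 1 the enzyme list held 4. H2-M2, a nonclassical class I gene, changed by -0.22 with PIC and by 5.87 without it (interaction -6.09, adjusted p = 1.5e-05). Its mean in the LP PIC cultures was 1512 CPM. Sod2 changed by 1.54 and 3.89 (interaction -2.35, adjusted p = 9.7e-06), Irg1 by 1.78 and 5.11 (-3.33) and Rasgrp1, a Ras exchange factor, by 1.67 and 6.90 (-5.22). Fpr2 (-4.95), Mmp14 (-3.52), Bcl2a1a (-4.31) and Bpifc (-4.98) were called under every alternative run, while Nos2 (-5.05) and Saa3 (-4.54) were not called without mouse 1, 2 or 4. Ccl6 changed by -2.38 with PIC and by 0.50 without it (interaction -2.88, adjusted p = 0.0032). For the cytokines Il6 (0.07), Tnf (-0.43), Il1b (-0.51) and Il12b (2.67) the interaction was not called, with adjusted p between 0.332 and 0.989. The antiviral list had a median change of 0.37 for 3M on LP and of 0.08 for 3M on PIC particles, and 2 of its interactions were below 0 with the mouse as a block.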

How the data were processed

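The authors deposited 1 table per library with raw counts of reads per gene, whole numbers that were not normalised. Per the submitters' processing notes, reads were handled with STAR 2.7.11b and HTSeq 0.13.5 on GRCm38, with FastQC 0.11.1 and DESeq2 1.44.0 also listed. Which annotation and strand option HTSeq was run with was not given in the sources used here, so reads of overlapping and antisense genes may be shared. Of the reads entered in the tables, 7.09 to 7.91% fell outside genes and 1.33 to 1.90% on more than 1 gene, and these entries were left out.

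Tests used edgeR 4.0.16 (with limma 3.58.1) and, as an alternative, DESeq2 1.42.0, under R 4.3.3. Summaries used Python 3.11.15, scipy 1.17.1, numpy 2.4.6 and pandas 2.3.3, and figures matplotlib 3.10.9. Of 24421 genes, filterByExpr (minimum count 10, minimum total 15) kept 12132, with 99.969% of the counts. TMM factors ran from 0.945 to 1.07. The quasi-likelihood F-test of edgeR, robust and two-sided, used a mean for each group over all 20 libraries (biological coefficient of variation 0.194), and the SE is the absolute log2 change over the square root of F. The procedure was run on simulated counts that had the same dispersion for every gene and no effect of the mouse. That run therefore does not cover the differences between mice seen here. Library totals of LP 3M PIC and LP PIC put a floor of 3 counts between 0.127 and 0.239 CPM (0.308 CPM in LP of mouse 2). Intervals and floors cover counting error only. No 2 libraries of a group were duplicates (chi-squared per degree of freedom 10.3 to 237 over 20 pairs).

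The libraries pair by animal, as the labels give a mouse for each. Same-mouse libraries deviated together from their group means, with correlations of 0.465, 0.363, 0.273, 0.237 and 0.373 in mice 1 to 5. Alternatives were the mouse as a block, DESeq2, its size factors, no filter, the 10 libraries alone, a minimum size of change and leaving out each mouse. The comparison, its 31 lists (770 entries, 769 found, 694 genes tested) and the genes named were chosen with earlier results of these data known, so no list is independent evidence. By rule the text names the 12 largest rises and falls with at least 5 CPM and 1 direction in all mice, list members with the smallest p, the 6 largest interactions each way and an immune panel. Other genes were named after their values were seen. Coordinates are from GENCODE M21, matched by symbol (95.7% of genes).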

Additional observations from a re-analysis of the deposited data

Results flagged for a closer look

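Among 479 groups of 5 libraries examined, 27 held a library that stood far from the other 4 of its group, and chance alone gives about 1 in 20. Of the 27, 12 were the dual library of mouse 5. There it lay below the others for Il6 (72.1 CPM against 231 to 369), Shisa3 (11.9 against 71.7 to 140), H2-T10 (41.4 against 62.0 to 72.0), Slamf7 (724 against 1016 to 1135), Csf2 (0.256 against 1.98 to 3.21), Tlr1 (83.8 against 161 to 199.9) and Ccnb2 (1.49 against 3.62 to 4.82). It lay above them for Matk (1.24 against 0.146 to 0.315), Bpifc (8.75 against 2.29 to 3.40), Mcl1 (574 against 413 to 440), Bbc3 (19.8 against 12.7 to 14.2) and Nsdhl (17.3 against 13.4 to 14.4). For each of these genes mouse 5 thus lay on the LP PIC side of the other dual libraries, and for Ccnb2 it lay below every LP PIC library as well (1.55 to 2.91 CPM).

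In LP 3M PIC of mouse 1, Col1a1 (0.876 CPM against 8.56 to 17.5) and Col1a2 (1.56 against 11.4 to 14.6) were low together, and in mouse 4 Zbtb46 was high (0.648 against 0.0487 to 0.128). In LP PIC, mouse 5 stood apart for Il6 (0.228 CPM against 0.647 to 0.799), Ciita (22.1 against 36.0 to 39.8) and Pfkm (21.9 against 16.8 to 18.1). Mouse 4 stood apart for Vegfa (43.3 against 52.6 to 56.1), Batf (20.4 against 13.6 to 14.2), Tgm2 (200 against 255 to 280), Slc2a1 (58.1 against 75.3 to 82.4) and Eif2ak3 (18.2 against 26.7 to 28.4). Mouse 3 stood apart for Sdhd (121 CPM against 136 to 140), Csf2 (0.173 against 0 to 0.0411) and Cxcl5 (0.691 against 0 to 0.0822), and mouse 1 for Sprr2d (0.168 against 0).

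Of the named genes, 11 had opposite changes on adding 3M with and without PIC, with a called interaction. Genes higher with PIC and lower without it were Atp2b4 (interaction 4.68), Egr3 (4.17), Ccnd2 (2.64), Hmmr (1.96), Mki67 (1.94), Top2a (1.52) and Cdt1 (1.32). Their changes with PIC were 3.52, 1.97, 1.66, 1.07, 1.17, 0.86 and 0.92, and without it -1.16, -2.20, -0.98, -0.89, -0.76, -0.66 and -0.40. Genes lower with PIC and higher without it were Bpifc (-4.98), Cd86 (-1.34), Pycard (-0.85) and Nsdhl (-0.50). Of these, Hmmr lost the interaction without mouse 1, Egr3 without mouse 4, and Cd86, Nsdhl and Top2a without mouse 1, 2 or 4. The fall of Bpifc with PIC was not called without mouse 1 or 2 (adjusted p = 0.070 and 0.062). The falls of Cd86 and Nsdhl with PIC were not called without mouse 1, 2 or 4, nor the rise of Top2a without mouse 4.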

How the results depend on the processing

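The number of genes called ran from 4035 to 5506 when 1 mouse was left out, was 6046 with the replicate block, 5639 with DESeq2, 5392 with its size factors, 5073 without the filter and 4468 on the 10 libraries alone, and no called gene changed sign. With a minimum log2 change of 1 it was 1290. The replicate block shared 98.9% of the calls. The interaction was less stable. With the replicate block it called 1656 genes, 704 above and 952 below 0, and with 1 mouse left out 182 to 1398, 60 to 616 above and 122 to 782 below. Of 241 named genes that were tested, 188 kept their side of the threshold under every alternative. Calls were lost by 29, 26, 12, 22 and 5 of them without mice 1 to 5. Among the named genes the replicate block changed the call on adding 3M for Oasl1, Ifnb1, Cxcl10 and Lyz2 (-0.48, adjusted p from 0.0952 to 0.0212), each newly called, and for no other. Fitted on the 10 libraries alone with the block, Isg15, Oasl1, Cxcl10 and Lyz2 were newly called, and Acsl1, Atp5b, Dusp8, Il15, Irak4, Itgam, Lpcat1, Pdia3, Pfkp, Ptafr, S100a8, Tapbpl, Tfe3 and Tgtp1 were not called, with adjusted p from 0.0501 to 0.148. Genes with few reads in LP PIC are limited by depth, and 5 mice limit the rest.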

Other observations

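Partner genes did not always move together, and the pairs given here were chosen after their values were seen. S100a8 and S100a9 encode the 2 chains of calprotectin. S100a8 had 310 reads in LP PIC and 15271 in LP 3M PIC, while S100a9 had 32 and 11. The S100a8 reads were spread unevenly over the dual libraries, from 3.46 to 564 CPM, and its groups overlapped, as given above. Lum, Col1a1, Col1a2 and Dcn are genes of the collagen matrix. Lum went from 0 to 1206 reads. Col1a1 stood at 12.1 and 9.97 CPM (-0.26 ± 0.53, adjusted p = 0.712), Col1a2 at 12.9 and 10.9 CPM (-0.24 ± 0.55, adjusted p = 0.746) and Dcn at 14 and 27.8 CPM (0.99 ± 1.09, adjusted p = 0.479). Of the other fibroblast markers, Pdgfrb went up with Lum, from 0.561 to 3.68 CPM. Col3a1 (0.47 and 0.46 CPM) and Pdgfra (0.38 and 0.35 CPM) hardly differed. Pecam1, an adhesion molecule of endothelial and myeloid cells, rose from 0.0863 to 1.72 CPM (4.19 ± 0.70, adjusted p = 0.000105), whereas the endothelial cadherin gene Cdh5 stood at 0.265 and 0.451 CPM (adjusted p = 0.249). The other endothelial markers were Tek, with 1 read in LP PIC and 18 in LP 3M PIC, and Kdr, at 68.9 and 97.6 CPM.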
